A study of Homo sapiens with 12 samples.

Results

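Many genes of the male germ line are kept silent in somatic tissue, and 37 of them, chosen as a set of cancer testis and germ cell genes, were read on the arrays of this series. A gene was taken as measured where the platform annotation gave a probe set its symbol and no other. On that rule 30 of the 37 genes were measured by 37 probe sets, out of 22215 probe sets without the controls. Where levels or differences are counted over the members, each of these 37 probe sets counts once. The counts are thus not of genes, since 6 genes have more than 1 probe set. MAGEA9 and SSX5 were represented on shared probe sets alone and are not counted among the measured genes. BAGE, TPTE, MAEL, ACRBP and STK31 were matched to no probe set, so these 5 genes were not analysed here. Of the 30 measured genes, 15 lie on the X chromosome.

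The arrays carried RNA from HMT-3522 S1, a human breast epithelial line of non-neoplastic origin that builds acini, hollow spheres of 1 cell layer, in basement membrane gel. Every group was grown at passage 55 to 60 from 35000 cells per cm2 in medium with 5% Matrigel, for 8 days with epidermal growth factor and then for 48 h without it. The Aza group received 10 µM 5-aza-2'-deoxycytidine, which blocks DNA methyltransferases, and the labels call it not polarized. The AGA group received 10 µM 18-alpha-glycyrrhetinic acid, an inhibitor of gap junctions, and is also labelled not polarized. The vehicle group is labelled polarized. Both agents were present for 10 days from plating, with fresh medium every 2 days. Each group had 4 arrays, named here by replicate number, and the series design calls the replicates biological. Whether they came from separate cultures is not stated further. The p-values rest on the spread between the 4 samples within a group, pooled over the 3 groups. Drug and polarity label cannot be told apart in this design.

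In germ cells these genes serve meiosis, the handling of RNA and the building of sperm. In most somatic cells many of them carry methylated CpG dinucleotides at their promoters, and some, the cancer testis antigens, are switched on in tumours. 5-aza-2'-deoxycytidine enters DNA as it is copied and traps methyltransferases there, and cancer testis genes are among its textbook targets in tumour cell lines. The comparisons below address whether single members rose above the floor of the arrays in Aza cultures. DNA methylation itself was not measured.

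The promoters of the members differ in how many CpG dinucleotides they hold, which is the base pair step that the drug's target enzymes modify. RefSeq promoter windows on build GRCh38.p14 were matched for 25 of the 30 measured genes. In the 250 bases before the gene's start, these 25 genes held a median of 11 CpG (range 0 to 39), against a median of 10 in all 27326 genes of the table. The 12 X-linked genes among them had a median of 6 CpG (range 1 to 18), and the 13 others a median of 17 (range 0 to 39). Of the windows below, AURKC and PRAME are shown because their levels were lowest in Aza relative to vehicle, MAGEA12 because its level was highest in AGA relative to vehicle, and SPA17 because it was the one member bright on every array. Each is printed 5′ to 3′ on the strand of the gene with every CpG in capitals. AURKC lies at chr19:57230773-57231022 on the plus strand with 14 CpG. PRAME lies at chr22:22559266-22559515 on the minus strand with 9. MAGEA12 lies at chrX:152733507-152733756 on the plus strand with 5. SPA17 lies at chr11:124673654-124673903 on the plus strand with 20.
AURKC: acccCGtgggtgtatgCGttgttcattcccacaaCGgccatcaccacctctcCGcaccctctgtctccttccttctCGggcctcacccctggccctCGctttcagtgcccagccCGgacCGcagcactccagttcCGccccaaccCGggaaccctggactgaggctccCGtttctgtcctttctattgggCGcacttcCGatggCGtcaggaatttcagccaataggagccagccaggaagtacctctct
PRAME: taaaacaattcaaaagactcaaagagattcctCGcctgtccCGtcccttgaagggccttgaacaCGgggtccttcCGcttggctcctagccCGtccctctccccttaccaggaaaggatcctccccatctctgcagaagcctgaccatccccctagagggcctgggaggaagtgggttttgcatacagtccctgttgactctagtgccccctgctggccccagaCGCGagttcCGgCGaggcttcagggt
MAGEA12: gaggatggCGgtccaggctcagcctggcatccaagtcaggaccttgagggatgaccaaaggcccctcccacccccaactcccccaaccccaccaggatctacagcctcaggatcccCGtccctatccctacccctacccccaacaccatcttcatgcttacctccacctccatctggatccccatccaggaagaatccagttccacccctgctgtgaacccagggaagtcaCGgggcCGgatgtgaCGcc
SPA17: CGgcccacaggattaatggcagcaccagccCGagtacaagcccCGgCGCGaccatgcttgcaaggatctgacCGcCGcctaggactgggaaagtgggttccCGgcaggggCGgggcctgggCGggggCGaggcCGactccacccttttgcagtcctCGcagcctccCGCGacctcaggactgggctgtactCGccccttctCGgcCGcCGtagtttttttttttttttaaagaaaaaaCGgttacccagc
The letters CACGTG, an E-box that reads the same on both strands, were found in 2 of the 25 windows (BRDT and PAGE1) and in 6.47% of all windows. The letters CCGGAA, the core of ETS factor motifs, were searched on both strands and found in 2 of the 25 (PRAME and SPAG6) and in 14.8% of all. No match of one overlapped a match of the other, and a match is a description of these windows only.

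Levels are given as log2 of the quantile normalized intensity, where a deposited intensity below 1 was set to 1, so that 0 is the floor. The median level of an array was 4.84. Of the 37 member probe sets, 35 were never above that median on any of the 12 arrays, and 36 had a mean level under 4. The exceptions above the median were SPA17, on all 12 arrays, and LDHC, on 3 arrays. Of the 444 member values, 15 lay above the median and 103 had a deposited intensity below 1. The brightest deposited intensities were 90.6 for SPA17 and 39.6 for LDHC, and no other member exceeded 18.4.

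Values below 1 were frequent among the members in every group. In Aza they made up 22.3% of the 148 member values, in AGA 29.1% and in vehicle 18.2%, against 5.97%, 6.98% and 5.68% over all probe sets. Of the 37 probe sets, 17 were at 1 or more on all 4 Aza arrays, 13 on all 4 AGA arrays and 18 on all 4 vehicle arrays. These are 45.9%, 35.1% and 48.6% of the members, against 85.0%, 82.9% and 86.0% of all probe sets. The counts use deposited intensities, before normalization. Deposited array medians ran from 25.5 to 31.0 in Aza, 23.3 to 30.2 in AGA and 29.6 to 35.9 in vehicle. The order of the groups is therefore not read as a difference between treatments. The members' replicates also scattered more. The median SD between replicates was 1.17 in Aza, 1.04 in AGA and 1.09 in vehicle for the members, and 0.45, 0.46 and 0.44 for all probe sets.

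A panel of 36 genes restricted to other tissues (58 probe sets) gave a median mean level of 1.88, and the members gave 1.53. In that panel 93.1% of probe sets stayed below the array median on all 12 arrays, and among the members 94.6% did. Probe sets differ in how strongly they bind, so these levels place the members against the floor of the arrays and do not rank transcripts. Of 10 mammary epithelial marker genes, 8 had a probe set above the median on all 12 arrays, as 1 of 6 fibroblast, 0 of 4 leukocyte and 0 of 3 endothelial marker genes did. In bulk RNA, fewer cells of a type and less RNA per cell cannot be told apart. The arrays of replicate number 4 stood apart from the other 9 in every group, on the first principal component of the probe sets above the median, which held 43.7% of their variance.

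**Figure D1:**
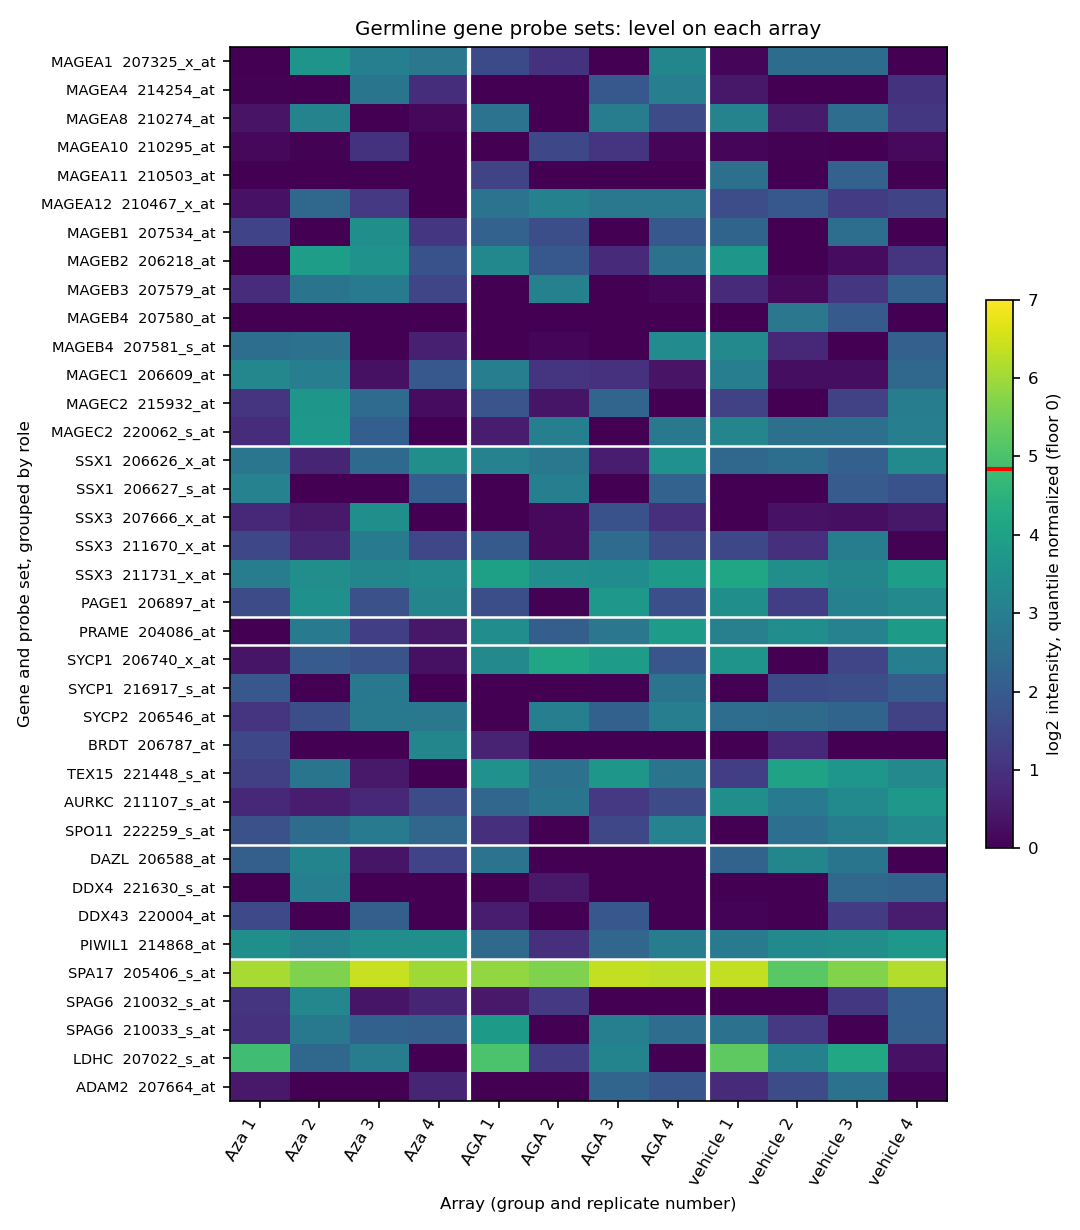
Level of each of the 37 member probe sets (rows, grouped by role) on each array (columns, Aza then AGA then vehicle), as log2 quantile normalized intensity with a floor of 0. The red mark on the colour scale is the array median of 4.84, which SPA17 exceeded on all 12 arrays and most rows never did.

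No member passed the test in Aza against vehicle. With limma over all 22215 probe sets, 0 of the 37 member probe sets had an adjusted p under 0.05, and 2 of all probe sets did (0.00900%). At an unadjusted p under 0.05, 0 members were higher, against 1.67% of all probe sets, and 3 were lower (AURKC, PRAME and TEX15), against 1.60%. With the replicate number as a block, 0 members passed and 0 of all probe sets did (0%). With the block and an intensity trend, 0 members passed and 1 of all did (0.00450%).

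No member had all 4 Aza values above all 4 vehicle values, where 0.846% of all probe sets did. The reverse held for 2 members, AURKC and PRAME, against 0.878% of all. Paired by replicate number, 0 members were higher in 4 of 4 pairs (7.61% of all), and 3 were lower in 4 of 4 (7.12% of all), namely AURKC, PRAME and LDHC. A value at the floor cannot exceed another. Only the 17 members at 1 or more on all 4 Aza arrays could thus be counted as higher, against 85.0% of all probe sets. Only the 18 at 1 or more on all 4 vehicle arrays could be counted as lower, against 86.0% of all. No member was at least 1 on all Aza arrays and below 1 on all vehicle arrays, as 6 of all probe sets were (0.0270%). The opposite held for 0 members and for 5 of all (0.0225%). No member was below 1 on all 4 vehicle arrays, where 126 of all probe sets were, so none could meet the first of these rules. That count of 0 therefore says nothing about Aza.

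The median difference of Aza from vehicle was -0.03 over the members and -8e-04 over all probe sets, with 18 members above 0 and 19 below. The members ranged from -2.43 (AURKC) to 1.08 (MAGEA1). Differences over 1 occurred in 2 members and in 4.10% of all probe sets, and differences under -1 in 6 members and in 3.99% of all. Regardless of sign, the median difference was 0.55 over the members and 0.19 over all probe sets. The members also scattered more between replicates. Whether that scatter accounts for their larger differences was not tested. The median 95% interval reached 1.66 to either side, so a member's change had to be large to stand out from its replicates. The upper bound of the interval lay under 1 for 13 members and under 2 for 24 of the 37. For the others the interval reached past 2. A rise of that size could not be told from no change in this fit, which leaves the pairing by replicate number out.

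**Figure D2:**
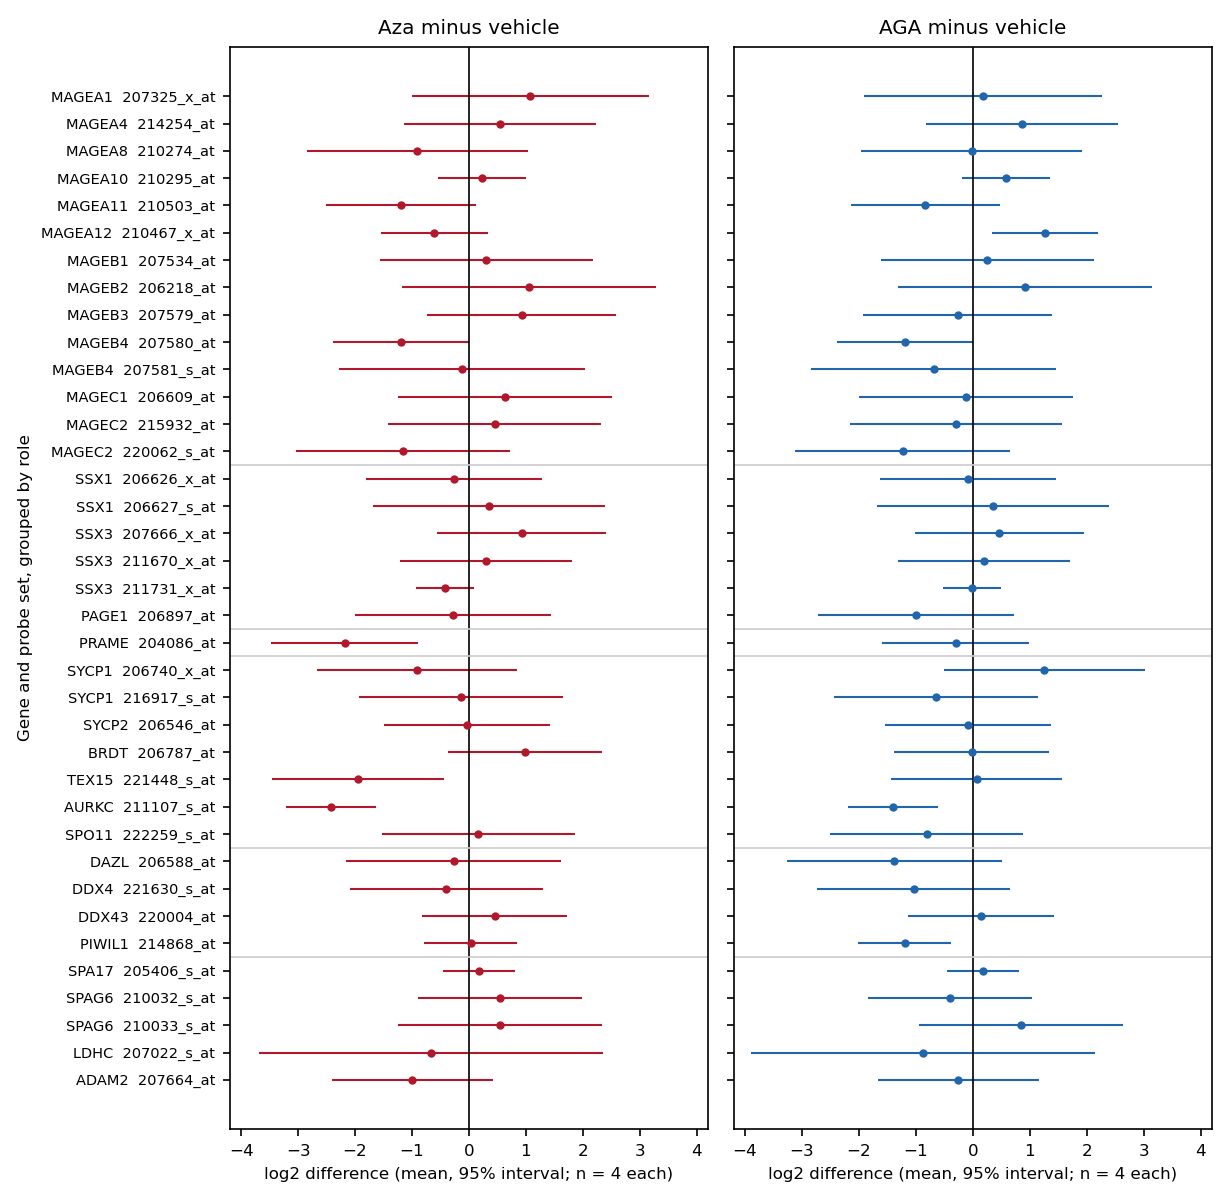
Difference from vehicle in log2 level for each member probe set (rows), with Aza on the left and AGA on the right, as mean and 95% interval from the limma fit with 4 arrays per group. Points lie on both sides of 0 in both panels, and AURKC has the lowest Aza value at -2.43.

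Among the MAGE genes, X-linked tumour antigens whose proteins bind ubiquitin ligases, 12 genes were measured by 14 probe sets, and 0 passed the test in any comparison. Their median difference was 0.26 in Aza against vehicle, with 8 above 0 and 6 below, and -0.07 in AGA against vehicle, with 6 above 0 and 8 below.

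MAGEA1 had the highest Aza difference of all members. Its levels were 0, 3.61, 3.02 and 2.76 in Aza, 1.57, 1.04, 0 and 3.20 in AGA, and 0.13, 2.47, 2.48 and 0 in vehicle. In every group at least 1 array was at the floor, and the groups overlapped. Aza exceeded vehicle by 1.08 ± 0.94 (SE; limma adjusted p = 1), and AGA by 0.18 ± 0.94 (adjusted p = 1).

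MAGEB2 levels were 0, 3.89, 3.57 and 1.76 in Aza, 3.28, 1.92, 0.85 and 2.64 in AGA, and 3.70, 0, 0.23 and 1.06 in vehicle. The highest vehicle array lay above 3 of the Aza arrays, and the Aza difference was 1.06 ± 1.01 (SE; limma adjusted p = 1). MAGEB3 levels were 0.88, 2.70, 2.90 and 1.47 in Aza, 0, 3.08, 0 and 0.09 in AGA, and 0.82, 0.17, 1.10 and 2.15 in vehicle. Of these, 2 Aza arrays lay above all vehicle arrays, the other 2 within their range, and the Aza difference was 0.92 ± 0.75 (SE; limma adjusted p = 1).

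MAGEA12 was the one member whose AGA values all lay above vehicle. Its levels were 0.33, 2.33, 1.17 and 0 in Aza, 2.66, 3.07, 2.79 and 2.81 in AGA, and 1.66, 1.92, 1.25 and 1.43 in vehicle. The AGA arrays did not overlap with those of either other group, while Aza and vehicle overlapped. AGA exceeded vehicle by 1.27 ± 0.42 (SE), with a limma adjusted p of 0.982. Aza lay below AGA by a difference of -1.88, with an adjusted p of 0.601, the lowest among the members in that comparison. Its probe set is of the _x_at type, in which some probes can match related transcripts, and the MAGE-A genes are close copies of each other.

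At the dim end, MAGEA11 was at the floor on all 4 Aza arrays. In AGA it read 1.44, 0, 0 and 0, and in vehicle 2.57, 0, 2.19 and 0, so that 2 vehicle arrays made the Aza difference of -1.19. MAGEB4 probe set 207580_at was at the floor on all 8 arrays of Aza and AGA and on 2 of vehicle, with 2.78 and 1.98 on the other 2. The other MAGEB4 probe set, 207581_s_at, ran from 0 to 3.39 with an Aza difference of -0.12. MAGEA11 and MAGEB4 207580_at thus had 2 of 4 vehicle arrays at the floor as well.

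MAGEA10 levels were 0.15, 0.03, 1.04 and 0 in Aza, 0, 1.51, 1.05 and 0.11 in AGA, and 0.10, 0.03, 0 and 0.18 in vehicle. All 4 vehicle arrays were near the floor, and AGA exceeded vehicle by 0.59 ± 0.35 (SE; limma adjusted p = 1) through 2 of its arrays. The remaining MAGE probe sets all reached the floor or near it on some array. The highest level was 3.01 for MAGEA4, 3.13 for MAGEA8, 3.49 for MAGEB1, 3.24 for MAGEC1, 3.72 for MAGEC2 215932_at and 3.74 for MAGEC2 220062_s_at. Their Aza differences ran from -1.16 to 0.64, and the pair of MAGEC2 probe sets had opposite signs, at 0.45 and -1.16.

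SSX proteins are transcriptional repressors known from the SS18 fusions of synovial sarcoma, and PAGE1 belongs to the GAGE-like antigens. The SSX and PAGE probe sets, 6 for 3 genes, had a median Aza difference of 0.02 and a median AGA difference of 0.10, and 0 passed the test. SSX3 probe set 211731_x_at was among the brighter members, with 2.96, 3.45, 3.21 and 3.35 in Aza, 3.98, 3.44, 3.40 and 3.83 in AGA, and 4.12, 3.47, 3.20 and 3.88 in vehicle. These groups overlapped, and the Aza difference of -0.43 ± 0.23 (SE; limma adjusted p = 1) had the smallest error of any member.

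SSX3 probe set 207666_x_at read 0.81, 0.47, 3.49 and 0 in Aza, 0, 0.19, 1.77 and 0.96 in AGA, and 0, 0.35, 0.28 and 0.44 in vehicle. The Aza difference of 0.93 ± 0.67 (SE; limma adjusted p = 1) came largely from array 3. The remaining SSX3 probe set, 211670_x_at, ran from 0.04 to 2.93 with an Aza difference of 0.30, so the probe sets of this gene did not share a sign.

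SSX1 probe set 206626_x_at read 2.74, 0.72, 2.40 and 3.47 in Aza, 3.10, 2.80, 0.56 and 3.55 in AGA, and 2.33, 2.53, 2.15 and 3.36 in vehicle. Array 4 was the highest of each group, and Aza differed from vehicle by -0.26 ± 0.70 (SE; limma adjusted p = 1). The other SSX1 probe set, 206627_s_at, was at the floor on 6 arrays with an Aza difference of 0.35. PAGE1 ran from 0.04 to 3.72, with differences of -0.28 in Aza and -1.0005 in AGA, and its groups overlapped.

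PRAME, a melanoma antigen and repressor of retinoic acid receptor signalling, was lower in all 4 Aza arrays than in any vehicle array. Its levels were 0, 2.91, 1.30 and 0.44 in Aza, 3.44, 2.12, 2.77 and 3.84 in AGA, and 3.05, 3.43, 3.09 and 3.81 in vehicle. The Aza array nearest to vehicle was array 2, just under the lowest vehicle array, and AGA overlapped with both groups. Aza differed from vehicle by -2.18 ± 0.58 (SE), which did not pass, with a limma adjusted p of 1 and of 0.912 with the replicate block. AGA differed from vehicle by -0.30 ± 0.58 (SE; limma adjusted p = 1).

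Among the genes of meiosis and germ cell chromatin, 6 genes were measured by 7 probe sets, with a median difference of -0.14 in Aza and -0.09 in AGA. None passed the test in limma. AURKC, the Aurora kinase of meiotic cells, had the lowest Aza p of all members. Its levels were 0.79, 0.54, 0.81 and 1.59 in Aza, 2.32, 2.72, 1.16 and 1.61 in AGA, and 3.49, 2.86, 3.35 and 3.74 in vehicle. The vehicle arrays lay above every array of both treated groups, and Aza and AGA overlapped. In deposited intensity these were 1.73, 1.59, 1.82 and 3.00 in Aza, 4.11, 6.99, 1.81 and 2.89 in AGA, and 11.4, 8.10, 11.1 and 14.0 in vehicle, all below the array medians of 23.3 to 35.9.

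AURKC differed by -2.43 ± 0.36 (SE) in Aza against vehicle, with a 95% interval of -3.22 to -1.63. The limma adjusted p was 0.196, with 0.711 when blocked by replicate number and 0.538 with an added intensity trend, so the gene is reported as lower in 4 of 4 pairs but not past the test. In AGA against vehicle it differed by -1.41 ± 0.36 (SE; limma adjusted p = 0.808), also lower in 4 of 4 pairs. Aza lay below AGA by a difference of -1.02 (limma adjusted p = 0.943). The Aza and AGA values were set against the same vehicle arrays, so they are not independent of each other.

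TEX15, which in mouse serves meiotic recombination and the silencing of transposons, read 1.34, 2.71, 0.48 and 0 in Aza, 3.54, 2.63, 3.71 and 2.71 in AGA, and 1.29, 4.04, 3.69 and 3.29 in vehicle. Vehicle array 1 fell among the Aza values, so the groups overlapped. Aza differed from vehicle by -1.95 ± 0.68 (SE; limma adjusted p = 1), and AGA by 0.07 ± 0.68 (adjusted p = 1).

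BRDT, the bromodomain reader of spermatocyte chromatin, read 1.51, 0, 0 and 3.21 in Aza, 0.69, 0, 0 and 0 in AGA, and 0, 0.78, 0 and 0 in vehicle. It was at the floor on 2 Aza, 3 AGA and 3 vehicle arrays, and the other 2 Aza arrays lay above all vehicle arrays. The Aza difference was 0.98 ± 0.61 (SE; limma adjusted p = 1).

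SYCP1, the transverse filament protein of the synaptonemal complex that holds paired chromosomes together, had its widest contrast between the drugs. Probe set 206740_x_at read 0.39, 2.01, 1.80 and 0.31 in Aza, 3.29, 4.13, 3.84 and 1.88 in AGA, and 3.63, 0.01, 1.47 and 3.03 in vehicle. Aza and AGA overlapped by 1 array each, and vehicle spanned nearly the whole range. Aza lay below AGA by a difference of -2.16 (limma adjusted p = 0.959), lower in 4 of 4 pairs, and the other SYCP1 probe set, 216917_s_at, gave 0.49. SYCP2, of the lateral element of the same complex, ran from 0 to 3.02 with an Aza difference of -0.03. SPO11, which makes the breaks that start recombination, ran from 0 to 3.28 with an Aza difference of 0.16.

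The 4 measured genes of germ cell RNA handling had a median difference of -0.12 in Aza and -1.11 in AGA against vehicle, and Aza exceeded AGA in all 4, by a median of 0.87. None of the differences passed. PIWIL1, a Piwi protein that carries piRNAs against transposons, was the most evenly measured of them. Its levels were 3.49, 3.12, 3.44 and 3.50 in Aza, 2.42, 0.95, 2.31 and 2.96 in AGA, and 2.86, 3.35, 3.47 and 3.73 in vehicle. AGA lay below Aza on every array and overlapped with vehicle by 1 array. The difference was 0.03 ± 0.37 (SE; limma adjusted p = 1) in Aza against vehicle and -1.20 ± 0.37 (SE; limma adjusted p = 0.953) in AGA against vehicle. Aza exceeded AGA by 1.23 (limma adjusted p = 0.825).

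DAZL, an RNA-binding regulator of translation in germ cells, ran from 0 to 3.23, with 3 of 4 AGA arrays below 1. Its difference was -0.27 in Aza and -1.38 in AGA. DDX4, the vasa helicase of germ granules, was at the floor on 8 of the 12 arrays and reached 3.03 on Aza array 2. DDX43, a related helicase and tumour antigen, ran from 0 to 2.13 with an Aza difference of 0.45.

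Of the genes of sperm structure and metabolism, SPA17 was the one member above the array median throughout. This sperm protein resembles the docking part of protein kinase A and is also found in ciliated somatic cells. Its levels were 6.10, 5.64, 6.42 and 6.001 in Aza, 5.88, 5.64, 6.36 and 6.30 in AGA, and 6.36, 5.20, 5.69 and 6.20 in vehicle. All 12 arrays lay above the array median and the groups overlapped throughout. The difference was 0.18 ± 0.29 (SE; limma adjusted p = 1) in Aza and 0.18 ± 0.29 (SE; limma adjusted p = 1) in AGA.

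**Figure D3:**
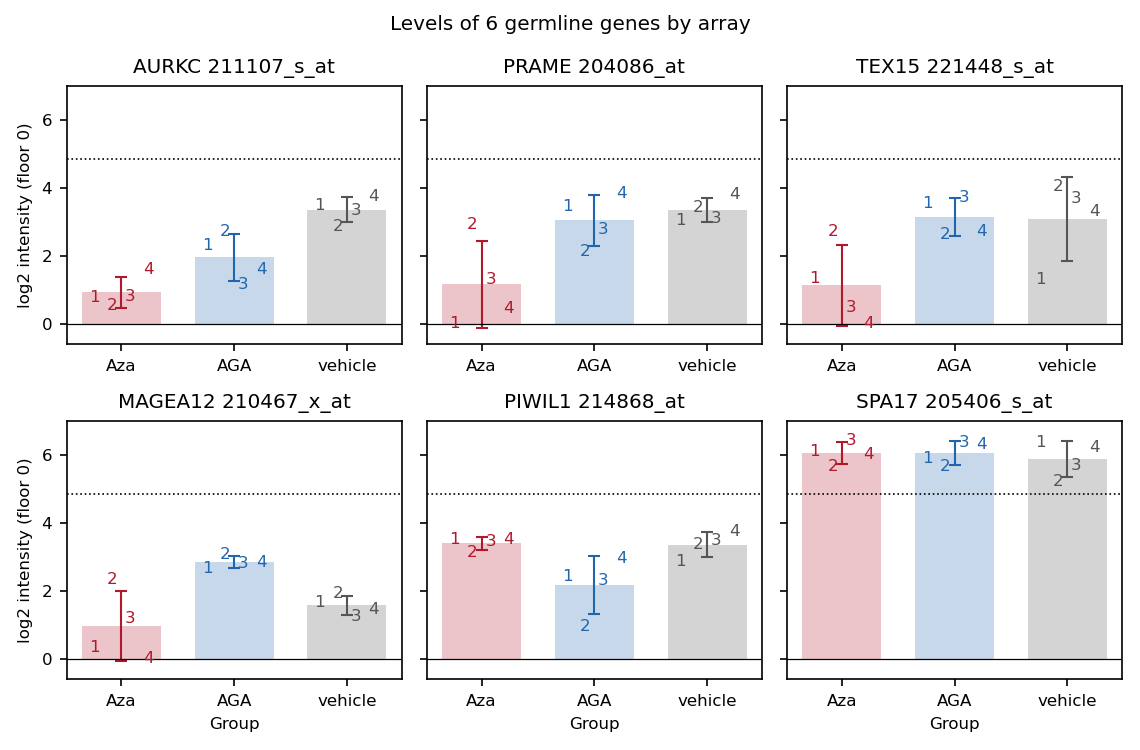
Level of 6 members in Aza, AGA and vehicle, as log2 intensity, with bars for the group mean, lines for 1 SD (n = 4), numerals for the replicate number of each array and a dotted line at the array median of 4.84. AURKC and PRAME are lower on all 4 Aza arrays than on any vehicle array, MAGEA12 is higher on all 4 AGA arrays, and SPA17 alone lies above the dotted line.

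LDHC, the lactate dehydrogenase of sperm, varied more with the replicate number than with the group. Its levels were 4.85, 2.38, 2.97 and 0 in Aza, 5.01, 1.22, 3.16 and 0 in AGA, and 5.27, 3.09, 4.17 and 0.35 in vehicle. Number 1 was the highest and number 4 the lowest in every group, and in each pair the treated array lay below vehicle. Replicate number accounted for 93.3% of the variance of LDHC and group for 3.99%. Over all members the median share was 25.3% for number and 14.8% for group, against 40.8% and 12.5% over all probe sets. By chance alone a split into 4 numbers takes up a larger share than a split into 3 groups. The members' medians therefore do not rank number above group. Number 4 was the lowest in all 3 groups for 1 member, LDHC, as for 11.0% of all probe sets, and the highest for 2, SSX1 and PIWIL1, as for 11.4%. LDHC differed by -0.67 ± 1.37 (SE; limma adjusted p = 1, or 0.912 with the replicate block) in Aza and by -0.87 ± 1.37 (SE; limma adjusted p = 1, or 0.466 with the block) in AGA. With the block the SE of LDHC was 0.29 in both comparisons. The limma unadjusted p with the block was 0.052 in Aza and 0.019 in AGA.

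**Figure D4:**
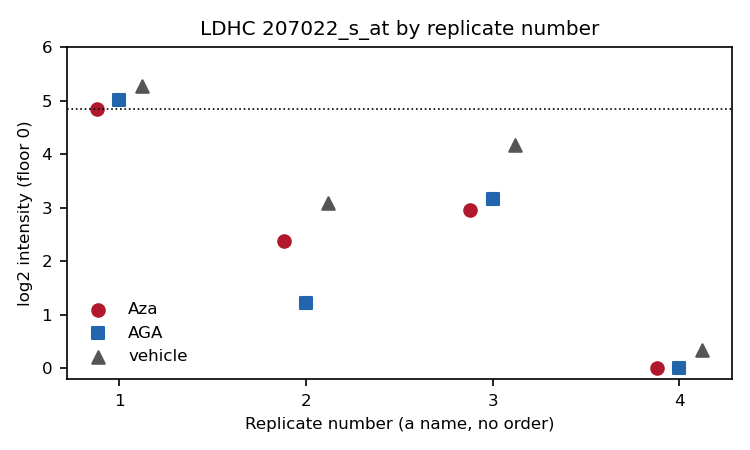
LDHC level (log2 intensity) by replicate number, with Aza, AGA and vehicle side by side within each number and a dotted line at the array median of 4.84. The 3 groups move together from number to number, with all 3 values at 0.35 or lower for number 4.

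SPAG6, part of the central apparatus of the sperm tail, gave Aza differences of 0.55 and 0.54 on its pair of probe sets and AGA differences of -0.40 and 0.84. ADAM2, a fertilin subunit of the sperm membrane, ran from 0 to 2.65 with an Aza difference of -0.99. Neither gene passed in any comparison.

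In AGA against vehicle, limma called 0 members and 2 of all probe sets (0.00900%). At an unadjusted p under 0.05, 1 member was higher, MAGEA12, against 2.38% of all, and 2 were lower, AURKC and PIWIL1, against 2.35%. The replicate block gave 0 members and 0.00900% of all, and block with trend 0 members and 0.702% of all. All 4 AGA values lay above vehicle for 1 member, MAGEA12 (1.23% of all), and below for 1, AURKC (1.29% of all). In 4 of 4 pairs 1 member was higher, MAGEA12 (9.15% of all), and 3 were lower, AURKC, PIWIL1 and LDHC (9.06% of all). The members' median difference was -0.09, against 0 over all probe sets, and the lowest adjusted p was 0.808, for AURKC.

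In Aza against AGA, limma called 0 members and 3 of all probe sets (0.0135%). At an unadjusted p under 0.05, 1 member was higher in Aza, PIWIL1, against 2.36% of all, and 5 were lower, MAGEA12, PRAME, SYCP1, TEX15 and AURKC, against 2.40%. The replicate block gave 0 members and 0.00900% of all, and block with trend 0 members and 0.851% of all. All 4 Aza values lay above AGA for 1 member, PIWIL1 (1.24% of all), and below for 1, MAGEA12 (1.34% of all). The median difference was 0.07 over the members.

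CpG content and response were set side by side over the 25 genes with a window, averaging the probe sets of a gene. The 13 genes with more than 10 CpG had a median Aza difference of 0.16, with 8 above 0. The 12 genes with 10 or fewer had a median of -0.38, with 4 above 0. In AGA the medians were -0.12 and -0.14. AURKC and PRAME, the lowest in Aza, had 14 and 9 CpG in the windows printed above, while SPAG6 with the most, 39, differed by 0.54. The same split was not made over all genes, so no background stands beside it. The X-linked genes held fewer CpG (median 6, against 17 in the others), so the split is in part one by chromosome. The median SE of a member's Aza difference was 0.75. These are descriptions of genes that share the same 12 arrays, and a link of CpG content to response was not tested.

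**Figure D5:**
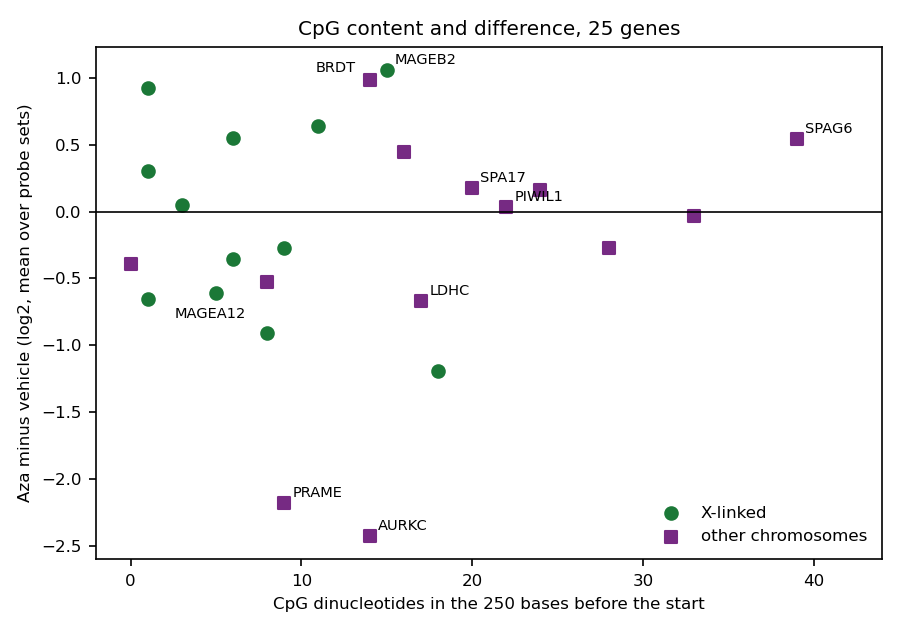
Mean difference of Aza from vehicle (log2) against the number of CpG dinucleotides in the 250 bases before the start, for the 25 measured genes with a RefSeq window, by chromosome class. AURKC and PRAME lie lowest at 14 and 9 CpG, and genes on both sides of 0 are found at low and at high CpG counts.

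A wider list of other germline genes was read beside the members. The list held 111 symbols, some of them an old and a new name of the same gene. From it 60 genes were measured by 80 probe sets, of which 92.5% stayed below the array median on all 12 arrays. Limma called 0 of them in any comparison, in each of its 3 fits. In Aza against vehicle 41 were above 0 and 39 below, with a median of 0.03 and a lowest adjusted p of 1. The 3 with the lowest p above 0 were DMC1, a meiotic recombinase (1.25), TDRD1, a Tudor protein of the piRNA pathway (1.47), and INSL3, a hormone of Leydig cells rather than germ cells (1.18). This DMC1 probe set was also above vehicle in AGA, by 1.44. The other probe set gave an Aza difference of 0.30 for DMC1 and of 0.90 for INSL3. The 3 below 0 were TSSK2, a sperm kinase (-1.08, and -1.13 on its other probe set), PDHA2, the testis pyruvate dehydrogenase subunit (-1.49), and ZPBP, an acrosomal protein (-1.84). The genes CABYR, PRSS21 and SPAG9 were above the array median on all 12 arrays.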

How the data were processed

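RNA of 12 samples was read on single-colour Affymetrix arrays, with 2.25 µg of RNA per sample per the labels' protocols. The authors deposited a linear intensity for each probe set (0.0206 to 11878.5), made with GCOS per the submitters' processing notes, with version, algorithm and detection calls not given in the sources used here. Deposited array medians ran from 23.3 to 35.9. The number of arrays limits the precision.

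Values below 1 were set to 1, log2 was taken and, since array medians differed by 0.62 (limit 0.5), arrays were quantile normalized. The 62 control probe sets of 22277 were left out. Of the rest, 19064 carried 1 gene symbol, 1043 several and 2108 none. Two-sided tests came from lmFit and eBayes (limma 3.58.1, R 4.3.3) on all 12 arrays and 3 groups. Benjamini-Hochberg adjustment was over all 22215 probe sets at 0.05. The fit was also run on simulated levels, with changes added only to probe sets of a mean above the median and no replicate effect. That run does not cover changes in dim members. A fold on the floored scale can understate a change that reaches the floor. The differences of dim probe sets also carry a wide scatter between replicates, so they are not to be read as conservative.

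Alternatives were the replicate block, block with an intensity trend, deposited scale, median-centred arrays, a floor of 16, only probe sets with a group mean above the median level, Holm's adjustment, number 4 left out, and each array left out. The replicate numbers were treated as pairing the samples in the counts of pairs and in the fits with a block. The main fit left the pairing out. Its SEs, intervals and adjusted p-values, given throughout unless a block is named, are therefore unpaired. Over the 10954 probe sets above the median, 12 of 12 same-number correlations of deviations from group means were over 0.1 (0.370 to 0.788), and those of different numbers reached 0.192. Over all probe sets 6 of 12 were, and over the members themselves 6 of 12 (-0.157 to 0.421, with up to 0.267 for different numbers). The labels give only the numbers.

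Values in full are given for members among the 5 lowest p per direction in Aza against vehicle, or the 3 lowest in the other comparisons, with non-overlapping Aza and vehicle values, with a switch at the floor, or among the 6 brightest. Where the text names other members, they are given by range, difference or count. Members and lists were chosen with earlier results of these data known. Promoter windows are RefSeq's, from the 5′-most start of a gene in the table.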

Additional observations from a re-analysis of the deposited data

Results flagged for a closer look

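Of 51 groups of 4 arrays of the fully described probe sets, 6 held 1 array that stood apart from its other 3 by Dixon's criterion. MAGEA10 read 1.04 on Aza array 3, against 0 to 0.15 on the other Aza arrays. MAGEA11 read 1.44 on AGA array 1, with the other AGA arrays at 0. MAGEB3 read 3.08 on AGA array 2, against 0 to 0.09 on the others. BRDT read 0.69 on AGA array 1 and 0.78 on vehicle array 2, with the other 3 arrays of each group at 0. PIWIL1 read 3.12 on Aza array 2, below the 3.44 to 3.50 of the others. In 3 of these 6 groups, MAGEA11 in AGA and BRDT in AGA and vehicle, the other arrays were all at the floor, where any value above it meets the criterion. The criterion's chance rate of about 1 in 20 does not apply to such groups, so the count of 6 is not set against it.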

How the results depend on the processing

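The count of members past the threshold was 0 in all 3 comparisons under every alternative run. Some of these runs left little room for another count. Without dim probe sets SPA17 alone remained among the members. A floor of 16 left most members at the floor on every array. The replicate block called no probe set at all in Aza against vehicle. The count of members switched on from below 1 also stayed at 0, though in the main setting the vehicle values alone fixed it there. The count over all probe sets in Aza against vehicle was 2, and became 0 with the replicate block, 1 with block and trend, 0 median-centred, 0 with a floor of 16, 0 without dim probe sets, 1 with Holm's adjustment and 6 without number 4. Leaving out 1 array gave 0 to 7, with 7 without Aza array 1, 4 without AGA array 1, 1 without AGA array 3 or vehicle array 1, and 0 without Aza array 2 or 3 or vehicle array 2, 3 or 4.

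The count of members with all Aza values above vehicle, 0, became 1 without number 4 and 0 to 1 leaving out 1 array (MAGEA1 without Aza array 1, SSX3 207666_x_at without Aza array 4). For AGA above vehicle, 1 became 0 with a floor of 16 and 0 without dim probe sets. For Aza above AGA, 1 became 0 under both of these, 2 without number 4, and 1 to 2 leaving out 1 array. Only 6 members ever exceeded a deposited 16, which is why such a floor removes most values. The members' median was -0.32 in AGA on the deposited scale, and leaving out 1 array gave -0.30 (without vehicle array 3) to -0.0325 in AGA and -0.0521 to 0.16 (without Aza array 4) in Aza.

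Of 660 named differences under alternatives, 624 kept direction and call, 36 took the opposite sign and 0 were newly called. AURKC in Aza ran from -2.65 to -2.30 with adjusted p from 0.0952 to 0.777. The replicate block changed no call of a member. Signs turned in AGA against vehicle on the deposited scale for SPA17 (-0.0853) and TEX15 (-0.14), with a floor of 16 for TEX15 (-0.0235), median-centred for SSX3 211731_x_at (0.0557) and BRDT (0.15), and without number 4 for MAGEA1 (-0.83), MAGEB3 (0.34) and SSX3 211731_x_at (0.0103). Leaving out 1 array turned signs in Aza for SSX1 206626_x_at (-0.64 to 0.28), MAGEA10 (-0.0175 to 0.33), LDHC (-1.62 to 0.18), PIWIL1 (-0.13 to 0.16) and SPA17 (-0.045 to 0.35). It did so in AGA for SSX1 206626_x_at (-0.45 to 0.56), TEX15 (-0.52 to 0.39), PRAME (-0.60 to 0.0075), SSX3 211731_x_at (-0.37 to 0.14), BRDT (-0.22 to 0.17), MAGEA1 (-0.40 to 0.68), SPA17 (-0.0533 to 0.35) and MAGEB3 (-1.03 to 0.10). The cause was not tested. Members near the floor limit what these arrays can show.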

Other observations

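Members that share a probe set with a close copy were read apart from the others. The probe set of MAGEA9 and MAGEA9B read 2.55, 2.71, 3.25 and 2.98 in Aza, 0.26, 2.25, 1.85 and 2.55 in AGA, and 0.81, 0.92, 3.30 and 2.70 in vehicle, with Aza above vehicle by 0.94 (limma adjusted p = 1). The Aza arrays were even and lay within the range of vehicle. They all lay above AGA, narrowly (lowest Aza 2.553, highest AGA 2.549), with a difference of 1.15 that did not pass. The probe set of SSX2, SSX2B and SSX3 read 3.62 to 4.44 in Aza, 1.21 to 4.06 in AGA and 3.57 to 4.65 in vehicle, below the array median of 4.84 throughout. The probe set of SSX3, SSX5 and SSX7 was at most 1.55 on any array.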
